A study of Mus musculus with 7 samples.

Results

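The genes described here are the 119 genes whose symbol begins with Kcn, or is Scn, a number and a, or is Cacna1 and a letter, out of 30406 genes common to all libraries of the series. The rule reads names alone and uses no measured value, though it was set with earlier results of these data known. It takes in the pore-forming subunits of sodium channels (10 genes), of calcium channels (10 genes) and of voltage-gated potassium channels (40 genes). It also takes in 37 genes of other potassium channels, most of them with weak or no voltage gating. These are 8 genes grouped with the calcium- or sodium-activated channels, 15 inward rectifiers and 14 two-pore channels. The remaining members are 17 auxiliary subunits and 5 transcripts that encode no channel, such as the long non-coding RNA Kcnq1ot1. The name "voltage-gated" therefore fits only some of the members, and they are called channel genes below.

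Voltage-gated sodium channels carry the upstroke of the action potential, calcium channels couple depolarisation to secretion, contraction and gene expression, and potassium channels set the resting potential and repolarise the membrane. Auxiliary subunits bind the pore-forming proteins and set their gating and trafficking. In the developing nose, excitable cells include olfactory sensory neurons and the migrating cells of the terminal nerve, while pericytes, smooth muscle, endothelium and glia use mainly potassium channels to hold their membrane potential.

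Single-cell RNA was measured by droplet sequencing (10x 3-prime libraries) in whole noses of mice at embryonic day 14.5. WT libraries came from CD1 IGS mice, of which 5 noses were used. Another 2 libraries, called Prokr2Cre replicates 1 and 2, came from 1 ProKR2iCre/R26tdTomato nose, in which the Prokr2 gene drives Cre, and Cre switches on the red reporter tdTomato. Per the labels that single suspension gave sorted and unsorted cells, the labels do not assign either to a library, and these 2 libraries share their animal. The names of the deposited files do mark 1 of the 2 as sorted, but file names were not used to describe samples, so a sort may set which cells the gates of either library hold. All noses were enzymatically dissociated, frozen and thawed before capture.

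Cells were kept from 500 detected genes upward and when mitochondrial genes gave no more than 10% of their UMIs (unique molecular identifiers, 1 per captured transcript). The libraries held 16773781 to 89800259 UMIs over all barcodes before this filter and 1111 to 10496 cells after it. WT replicates 3 and 4 shared 7386 barcodes, and replicate 3 was left out, so 4 WT captures were compared. Cell classes were gated by markers that include no channel gene. The olfactory neuron gate held 122, 92, 100 and 18 cells in WT replicates 1, 2, 4 and 5. The glia gate held 173, 109, 57 and 33, the endothelium gate 118, 74, 32 and 27, the mural gate (pericytes and vascular smooth muscle) 74, 39, 20 and 9, and the mesenchyme gate 3314, 4382, 4230 and 1998. Levels below are CPM, the UMIs of a gene over the cells of a gate per 1000000 UMIs of those cells. They are 3-prime counts and are compared between cells for 1 gene, not between genes.

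In mesenchyme, the largest gate, channel genes with long introns were low in 2 of the libraries, so each comparison below was made within libraries. The ratio of WT replicate 1 to WT replicate 4 had a median log2 value of 0.04 over 17 channel genes with under 10 kb of introns and of -2.84 over 29 channel genes with 100 kb or more. Over all genes the same medians were 0.08 and -1.76. Prokr2Cre replicate 1 showed the same pattern, with medians of 0.31 and -2.55 for channel genes. For the long channel genes the medians of WT replicate 2, WT replicate 5 and Prokr2Cre replicate 2 were -0.28, 0.29 and 0.24. Kcnq5, a pore-forming subunit with 563540 bases between its annotated ends, shows the size of this: its mesenchyme level was 2.49 CPM in WT replicate 1 and 1.59 in Prokr2Cre replicate 1, against 167, 175 and 183 in WT replicates 2, 4 and 5. Per the file headers these libraries were counted with different versions of Cell Ranger (6.0.1 for WT replicate 1, 6.1.2 for both Prokr2Cre libraries, 7.0.0 for the others). Whether intronic reads were counted is not given in the sources used here, and the part of counting in this pattern was not tested.

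**Figure D1:**
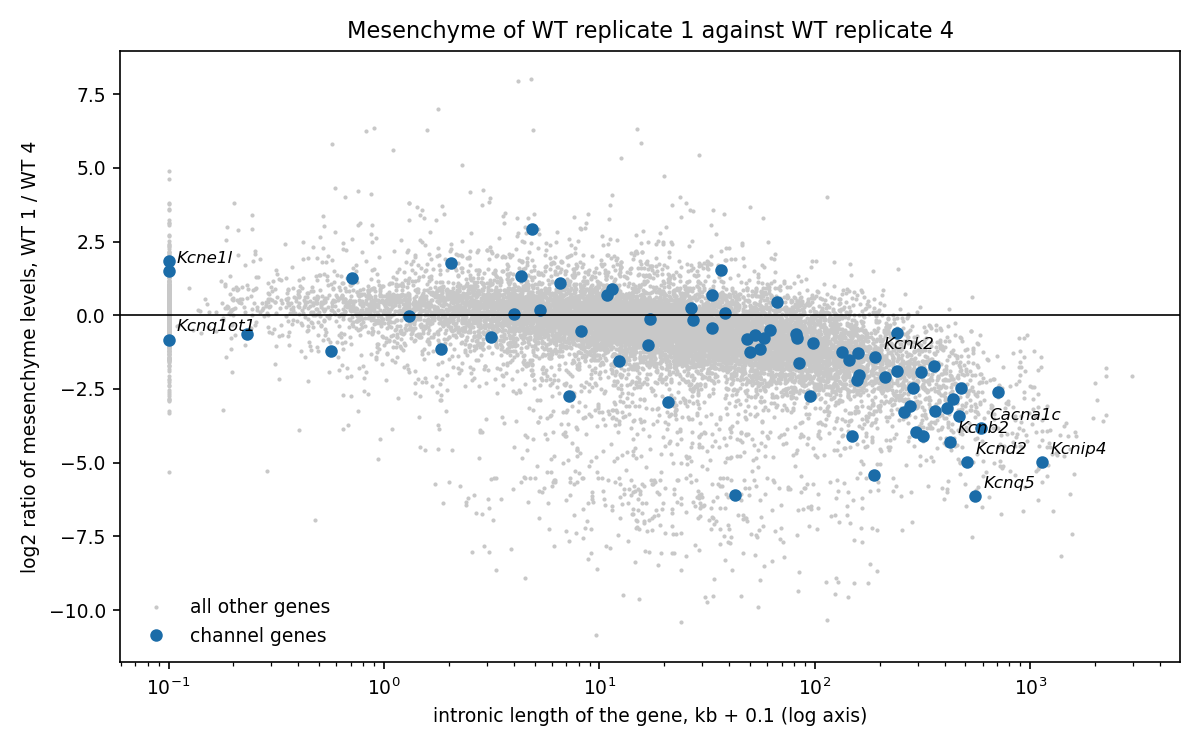
Log2 ratio of the mesenchyme level in WT replicate 1 to that in WT replicate 4 (y axis) against the intronic length of the gene in kb plus 0.1 (x axis, log scale), with channel genes in blue and all other genes in grey. The blue points fall with length, from a median of 0.04 under 10 kb to -2.84 from 100 kb, and Kcnq5 and Kcnip4 are among the lowest.

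Of the 119 channel genes, 37 passed the filter on low counts and were tested, while 82 did not. Among all members, 23 had under 30 UMIs over all kept WT cells, and Kcnk18 and Kcnmb4os1 had none. A gene that is high in a single gate passes the filter through that gate, so the tested genes do not stand for all members. The tested genes included 3 of 10 sodium channel genes, 7 of 10 calcium channel genes and 10 of 40 voltage-gated potassium channel genes. They also included 3 of 8 genes of the calcium- or sodium-activated group, 2 of 15 inward rectifiers, 3 of 14 two-pore channels and 7 of 17 auxiliary subunits.

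Olfactory neurons held more channel RNA than mesenchyme of their own capture. The summed level of all channel and auxiliary genes in olfactory neurons was 1058, 1800, 2387 and 2926 CPM in WT replicates 1, 2, 4 and 5, and 767 and 3840 in Prokr2Cre replicates 1 and 2. In mesenchyme it was 250, 882, 1106 and 1253 in the WT captures and 309 and 1459 in the Prokr2Cre libraries. The olfactory sum was the higher in all 6 libraries, although the values of the 2 gates overlap across libraries. It was not the highest of every gate, since the 18 cells of the terminal nerve gate in Prokr2Cre replicate 2 were at 5828. That order rests on Kcnip4, at 2245 CPM in these cells and 146 in olfactory neurons: without this gene the sum of the 18 cells was the lower. Endothelium, at 133, 310, 238 and 246 in WT replicates 1, 2, 4 and 5, lay below olfactory neurons, glia and mesenchyme of the same capture in all 4. Macrophages, at 107, 294, 371 and 240, were lower still in replicates 1, 2 and 5. Glia, at 241, 798, 1319 and 1363, lay below mesenchyme in replicates 1 and 2 and above it in replicates 4 and 5.

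**Figure D2:**
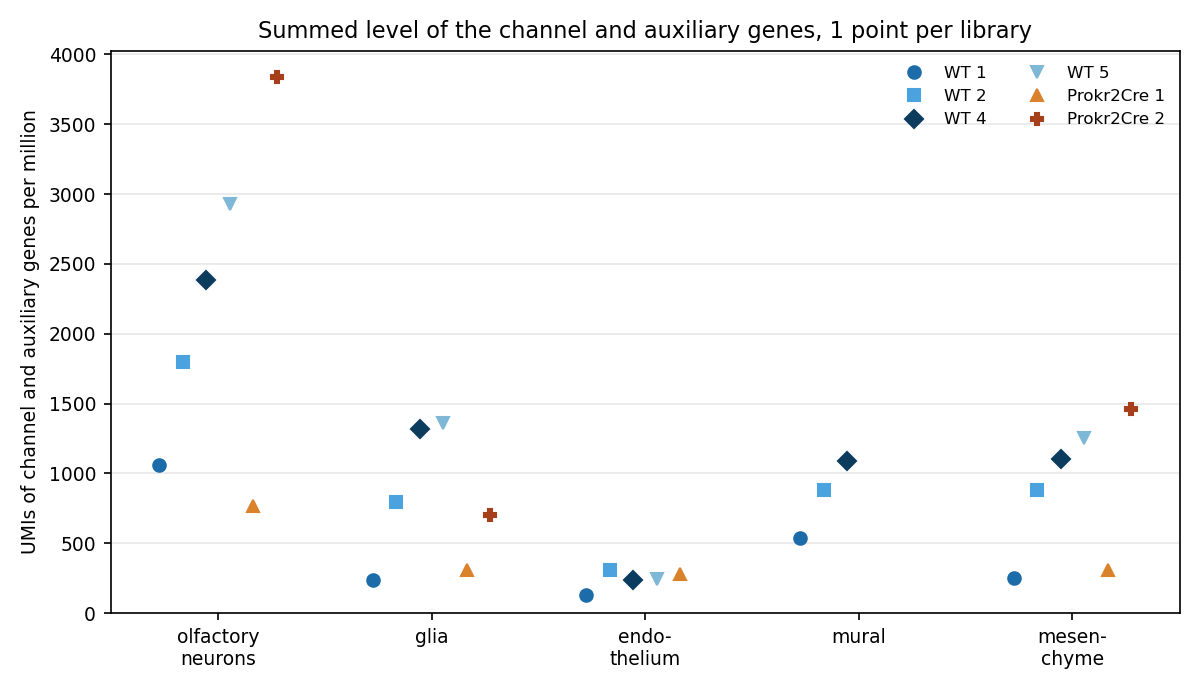
Summed level of the channel and auxiliary genes (CPM, y axis) in each gate (x axis), with 1 point per library that held at least 10 cells of the gate. In each library the olfactory neuron point lies above the mesenchyme point, and WT replicate 1 and Prokr2Cre replicate 1 have the lowest mesenchyme points (250 and 309).

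Olfactory neurons were compared with mesenchyme over 4 WT captures. Of the 37 channel genes tested, 27 were called, 20 of them higher and 7 lower in olfactory neurons (edgeR quasi-likelihood test with the capture as a block, Benjamini-Hochberg adjusted p below 0.05 over 11037 genes). Over all genes 57.6% were called, 28.7% higher and 28.9% lower. The median log2 fold change was 1.24 over the channel genes and -0.02 over all genes. The labels do not say which nose went into which replicate, so p-values measure the spread between captures, which may be partly technical. Epithelium markers moved with this comparison: their summed level was 747 to 988 CPM in olfactory neurons and 13.3 to 32.8 in mesenchyme, with 6 to 8 of 9 present. The forebrain list was at 24.1 to 54.8 against 1.02 to 15.3, and the terminal nerve markers Gal, Cntn2, Prph and Isl1 at 140 to 672 against 1.72 to 7.23. The part of these lists was not tested.

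Of the 3 tested sodium channel genes, 2 were higher in olfactory neurons. Scn9a, the sodium channel gene whose loss in people abolishes pain and smell, was at 257, 115, 117 and 178 CPM in olfactory neurons of WT replicates 1, 2, 4 and 5. Its mesenchyme level was 0.249, 0.235, 0.281 and 0.566, so the gates did not overlap. The log2 fold change was 8.88 ± 0.30 (SE, n = 4 captures, edgeR adjusted p = 9.05e-14). In Prokr2Cre replicates 1 and 2 the olfactory level of Scn9a was 131 and 372, also above every mesenchyme value. Scn3a, a sodium channel gene of embryonic neurons, was at 40.8, 30.005, 44.0 and 48.0 in olfactory neurons and at 4.33, 5.44, 8.26 and 10.6 in mesenchyme. It was higher by a log2 fold change of 2.58 ± 0.32 (edgeR adjusted p = 4.18e-07). The remaining one, Scn8a, the sodium channel of mature axons, was at 18.5, 18.3, 13.2 and 27.4 against 4.24, 12.8, 17.2 and 16.7 and did not pass the test (edgeR adjusted p = 0.081).

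Among calcium channel genes, those of the neuronal N and R types and 1 T-type gene were higher in olfactory neurons, and an L-type and another T-type gene were lower. Cacna1b, the pore of the N-type channel of nerve terminals, was at 34.3, 50.01, 110 and 34.3 in olfactory neurons and at 0.374, 4.50, 6.64 and 4.56 in mesenchyme (log2 fold change 4.22 ± 0.41, edgeR adjusted p = 1.19e-08). Cacna1e, the R-type pore, was at 25.9, 41.7, 96.9 and 6.85 against 0.779, 2.27, 8.40 and 5.05 (3.73 ± 0.52). For Cacna1e the lowest olfactory value, in replicate 5 with 18 cells, lies below the highest mesenchyme value. The T-type pore Cacna1h was at 43.5, 35.0, 41.1 and 34.3 against 5.14, 7.79, 12.3 and 13.01, with no overlap (2.17 ± 0.24).

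The other T-type pore, Cacna1g, took the opposite direction. It was at 2.78, 3.33, 2.94 and 13.7 CPM in olfactory neurons and at 27.4, 43.2, 61.1 and 63.1 in mesenchyme, a log2 fold change of -3.53 ± 0.38 (edgeR adjusted p = 3.96e-08). Cacna1c, the L-type pore of heart and smooth muscle, was at 7.41, 26.7, 14.7 and 123 against 13.6, 145, 195 and 243 (-2.23 ± 0.33). Each capture had less Cacna1c in its olfactory neurons than in its mesenchyme, while the values of the gates overlap across captures.

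Voltage-gated potassium channel genes gave the largest fold change of any channel gene in this contrast. Kcnh8, a pore of the ether-a-go-go-like group, was at 59.3, 273, 382 and 726 CPM in olfactory neurons of WT replicates 1, 2, 4 and 5. In mesenchyme it was at 0.0935, 0.313, 0.246 and 0.121. The log2 fold change was 10.53 ± 0.30 (SE, n = 4 captures, edgeR adjusted p = 6.45e-16). The lowest olfactory value of Kcnh8 was that of replicate 1, the library in which long channel genes were low. In Prokr2Cre replicates 1 and 2 it was at 41.6 and 124 in olfactory neurons and at 0 and 0.241 in mesenchyme.

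Relatives of Kcnh8 were also higher. Kcnh7, an erg-type pore, was at 20.4, 117, 132 and 233 against 1.12, 7.87, 6.25 and 6.58 in mesenchyme (log2 fold change 4.36 ± 0.25), and at 724 in olfactory neurons of Prokr2Cre replicate 2. Kcnh3, another member of the Kcnh8 group, was at 18.5, 10.0, 16.1 and 20.6 against 0.405, 1.06, 1.23 and 1.09 (4.21 ± 0.53). Neither gene had an olfactory value within the mesenchyme range.

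The Shaker-related pores behaved less evenly. Kcna5 was at 18.5, 5.00, 5.87 and 27.4 in olfactory neurons and at 0.810, 0.196, 0.211 and 0.525 in mesenchyme (log2 fold change 4.74 ± 0.58, edgeR adjusted p = 1.83e-06). Kcna2 was called higher (4.11 ± 0.50) with values of 21.3, 8.33 and 5.87 in replicates 1, 2 and 4, but had no UMI in the 18 olfactory neurons of replicate 5. Kcnq3, a subunit of the M-current that steadies firing, was at 3.71, 41.7, 49.9 and 89.1 against 0.904, 4.42, 5.06 and 9.29 (3.07 ± 0.35). Kcnb2, a delayed rectifier, was higher by only 0.77 ± 0.24 and in 3 of 4 captures. Kcnq5, the relative of Kcnq3 in the M-current family, was lower in olfactory neurons, at 1.85, 50.01, 27.9 and 34.3 against 2.49, 167, 175 and 183 (-2.10 ± 0.29). The Kcnq5 call was lost without the capture block (edgeR adjusted p = 0.162).

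Calcium-activated potassium channels were represented by pore and partner. Kcnma1, the pore of the large-conductance channel that opens with calcium and depolarisation together, was at 32.4, 60.01, 126 and 254 in olfactory neurons and at 2.59, 9.71, 15.8 and 22.4 in mesenchyme (log2 fold change 3.14 ± 0.24, edgeR adjusted p = 2.97e-10). Its inactivating beta subunit Kcnmb2 was at 61.1, 168, 181 and 164 against 0.312, 3.68, 5.02 and 3.11 (5.77 ± 0.28). For both genes every olfactory value lay above every mesenchyme value. Kcnmb4, the beta subunit of neurons, was higher by 1.24 ± 0.30 with values of 20.6 to 55.6 against 12.99 to 23.5, which overlap. Kcnn2, a small-conductance pore, was higher by 1.49 ± 0.32 and in 3 of 4 captures.

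Inward rectifier and two-pore channels contributed 1 gene each to the higher group. Kcnj3, a pore of the channel that G proteins open, was at 2.78, 75.0, 99.8 and 158 in olfactory neurons and at 0.187, 1.60, 0.913 and 3.64 in mesenchyme (log2 fold change 5.68 ± 0.44, edgeR adjusted p = 5.84e-09). Its values overlap only through replicate 1. Kcnk10, a two-pore leak channel that stretch and lipids open, was at 52.8, 51.7, 91.0 and 110 against 0.125, 0.352, 0.0703 and 0.162 (8.55 ± 0.47, adjusted p = 5.60e-12). The olfactory level of Kcnk10 in Prokr2Cre replicates 1 and 2 was 35.7 and 109.

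The close relative of Kcnk10, Kcnk2, was lower in olfactory neurons, at 11.1, 21.7, 20.6 and 27.4 against 19.2, 36.4, 51.3 and 39.5 (-0.97 ± 0.29, edgeR adjusted p = 0.00625). That direction held only for neurons that did not meet the epithelium gate: with the others kept, Kcnk2 was higher by 1.51 on the log2 scale. Epithelium was the gate with the most Kcnk2, at 100, 127, 231 and 71.2 CPM. Among the other lower members, Kcne1l, an auxiliary subunit of the single-span family, changed by -1.47 ± 0.44, and Kcnq1ot1 by -0.97 ± 0.22. The sodium-activated pore Kcnt2 was at 0.926, 1.67, 1.47 and 13.7 against 1.37, 12.1, 13.2 and 15.9 (-1.99 ± 0.77, edgeR adjusted p = 0.0311), a call that was lost in 5 alternatives. With both Prokr2Cre libraries added the log2 fold change of Kcnt2 was -0.37 (edgeR adjusted p = 0.539). The adjusted p was 0.166 without replicate 2, 0.122 without replicate 4, 0.117 with replicate 3 in place of 4 and 0.23 without the capture block.

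The promoters of the 2 channel genes with the largest fold change in olfactory neurons are given here, to show the sequence before genes that these cells hold and mesenchyme nearly lacks. Letters read by Ebf factors, such as the marker Ebf2, and by neuronal basic helix-loop-helix factors were searched. The windows are the 250 bases before the RefSeq start (assembly GRCm38.p6), 5′ to 3′ on the strand of the gene. Kcnh8 lies on the forward strand with its window at chr17:52602459-52602708. Scn9a lies on the reverse strand with its window at chr2:66634963-66635212. Capitals mark the E-box CATCTG or its reverse complement CAGATG, and neither of these windows holds one.
Kcnh8: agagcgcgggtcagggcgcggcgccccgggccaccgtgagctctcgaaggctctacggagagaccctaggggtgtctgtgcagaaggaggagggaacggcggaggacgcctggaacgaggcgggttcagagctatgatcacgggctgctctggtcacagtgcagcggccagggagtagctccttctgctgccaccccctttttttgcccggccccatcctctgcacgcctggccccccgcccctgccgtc
Scn9a: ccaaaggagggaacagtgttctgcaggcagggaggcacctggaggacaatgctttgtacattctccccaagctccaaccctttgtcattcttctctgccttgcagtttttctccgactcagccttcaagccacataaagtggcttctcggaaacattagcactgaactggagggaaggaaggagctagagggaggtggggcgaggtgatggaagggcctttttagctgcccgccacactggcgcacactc

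RefSeq windows were found for 87 of the 119 channel genes, 117 windows in all. The E-box was in 15.4% of these and in 14.4% of all 32851 windows. The Ebf core CCCNNGGGA, read on both strands, was in 5.98% of the channel windows and in 5.60% of all. Among the windows of the named genes higher in olfactory neurons, 0 of 10 held either motif, which says only that these letters are not in these 250 bases.

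Genes that work with the channels but lie outside the name rule were read from a list of 29, of which 18 were tested. In olfactory neurons 7 were higher and 5 lower, where 57.6% of all genes were called. The higher ones included the sodium channel beta subunit Scn3b (log2 fold change 3.36), Unc79, a subunit of the sodium leak channel complex (3.59), and Fgf12, which binds sodium channels (3.18). The calcium channel subunit Cacna2d1 was higher (1.93) and Cacna2d3 lower (-3.82).

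The Prokr2Cre libraries were not part of the test and are given as ratios within each library, for channel genes with at least 20 UMIs over both gates and a difference of at least 2-fold. In Prokr2Cre replicate 2, 35 of 64 such genes were higher in olfactory neurons than in mesenchyme and 15 lower, where 50.2% of all such genes passed (23.0% higher, 27.1% lower). Scn9a (372 against 0.241 CPM), Kcnh7 (724 against 0.723), Kcnh8 (124 against 0.241) and Kcnk10 (109 against 0.241) were among the higher ones. Genes too sparse for the WT test were seen there as well. Kcnk9, an acid-sensitive leak channel, was at 25.6 against 0.120, the erg-type pore Kcnh6 at 26.0 against 0.843 and Kcnc4 at 16.0 with no UMI in mesenchyme. Prokr2Cre replicate 1 had 10 olfactory neurons, and 18 of 41 genes were higher and 21 lower (54.1% of all such genes passed, 19.0% higher and 35.2% lower). The median ratio there was 0.476. With neurons that meet the epithelium gate kept (26 cells), 16 of 44 were higher and 14 lower, and the median ratio was 1.43. The share of all such genes that passed is not given for these 26 cells.

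**Figure D3:**
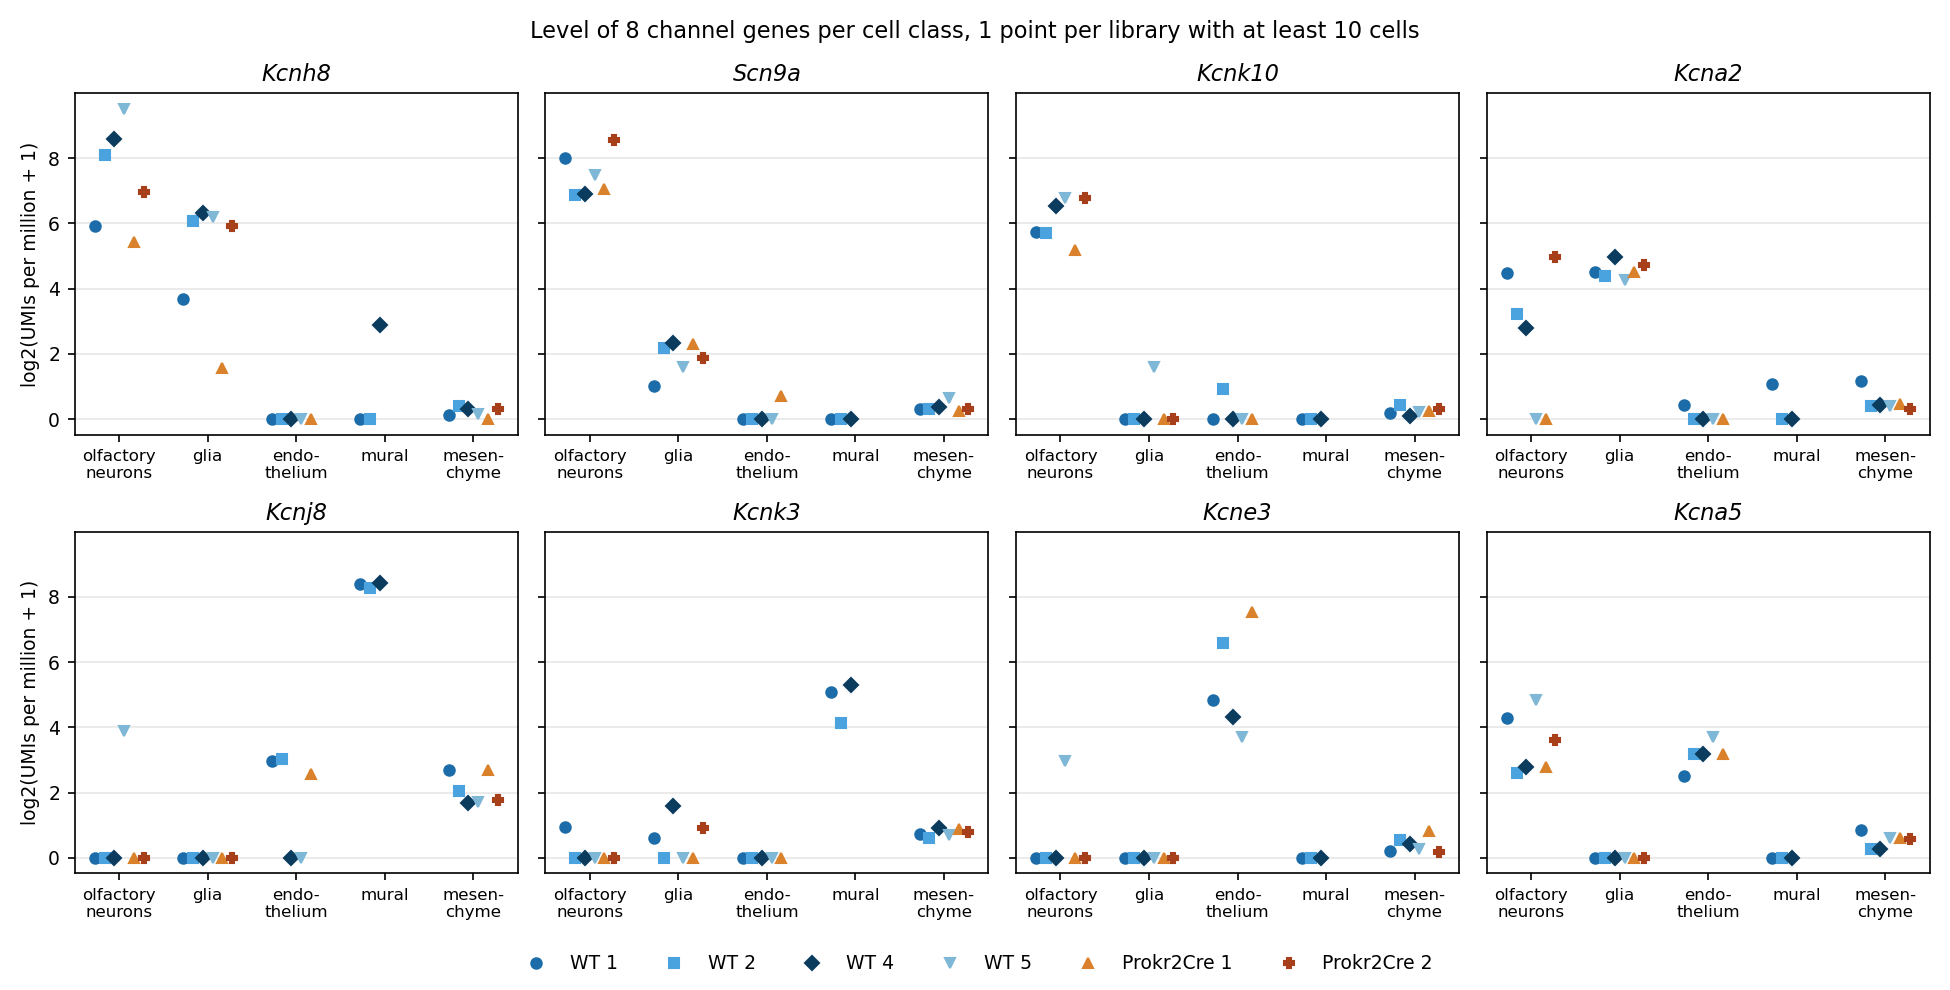
Levels of 8 channel genes (y axis, log2 of CPM plus 1) in 5 gates (x axis), with 1 point per library that held at least 10 cells. Kcnh8, Scn9a and Kcnk10 are highest in olfactory neurons, Kcnj8 and Kcnk3 in mural cells and Kcne3 in endothelium, while Kcna2 lies above mesenchyme in glia and, in 4 of 6 libraries, in olfactory neurons, and Kcna5 in olfactory neurons and endothelium.

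Glia had fewer channel genes above mesenchyme and more below. Of the 37 tested, 18 were called, 7 higher and 11 lower, where 24.7% of all genes were called (12.2% higher, 12.6% lower). The median log2 fold change was -0.74 over the channel genes and -0.02 over all genes. Without the capture block 9 of 37 channel genes were called, and 1283 of all 11037 genes. Marker lists of other cell types also moved. The forebrain list, with 2 of 5 markers found, was at 18.7, 25.6, 44.6 and 38.5 CPM in glia against 15.3, 1.02, 1.16 and 14.8 in mesenchyme of WT replicates 1, 2, 4 and 5. The mural list was at 67.6 to 89.1 against 39.1 to 54.6, and olfactory markers were lower, at 6.08 to 12.8 against 43.1 to 121. The part of these lists was not tested. Olfactory neurons and glia were each set against the same mesenchyme sums, so the contrasts share those samples.

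The higher genes of glia were mostly potassium channel pores. Kcnh8 was at 11.9, 66.4, 79.0 and 72.9 CPM in glia of WT replicates 1, 2, 4 and 5 (log2 fold change 8.13 ± 0.33 against mesenchyme, SE, n = 4 captures, edgeR adjusted p = 5.60e-13). In Prokr2Cre replicates 1 and 2 it was at 1.97 and 59.6. Every glia value of Kcnh8 lay above the mesenchyme values, which reached 0.313, and every WT capture had less in glia than in olfactory neurons.

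Kcna2 and Kcna6, delayed rectifiers of the Shaker group, had glia levels of the same order in all captures. Kcna2 was at 21.8, 19.8, 30.4 and 18.2 in glia and at 1.25, 0.313, 0.351 and 0.323 in mesenchyme (log2 fold change 5.41 ± 0.43, edgeR adjusted p = 1.31e-09), and at 21.7 and 25.4 in glia of the Prokr2Cre libraries. Kcna6 was at 22.3, 34.9, 18.2 and 34.4 against 4.05, 3.60, 3.44 and 3.51 (2.88 ± 0.38). Both had no overlap between the gates.

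Kcnq5 and the sodium-activated pore Kcnt2 depended on the library for their level but not for their direction. Kcnq5 was at 3.63, 353, 695 and 733 in glia against 2.49, 167, 175 and 183 in mesenchyme, a log2 fold change of 1.70 ± 0.20 (edgeR adjusted p = 8.62e-07). Kcnt2 was at 2.07, 48.9, 97.3 and 50.6 against 1.37, 12.1, 13.2 and 15.9 (2.11 ± 0.35). Each capture had more of both genes in glia, and both calls were lost without the capture block (edgeR adjusted p = 0.431 for Kcnq5 and 0.122 for Kcnt2). Kcnq5 thus lay above mesenchyme in glia and below it in olfactory neurons of every WT capture.

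The calls of the remaining higher genes were lost in some alternatives. Scn9a was at 1.04, 3.49, 4.05 and 2.02 in glia (log2 fold change 2.63 ± 0.74, edgeR adjusted p = 0.0129), and the call was lost without replicate 2 (adjusted p = 0.116) or without replicate 4 (0.0676). Cacna1a, the P/Q-type calcium pore, was at 19.7, 34.9, 120 and 56.7 against 14.9, 18.6, 22.7 and 20.1 (1.37 ± 0.28). That call was lost with both Prokr2Cre libraries added and when each gate needed 1 more marker. Scn7a, a sodium channel relative expressed by glia that does not open with voltage, did not pass the filter and is given as levels: 5.18, 6.99, 14.2 and 22.3 in WT glia and at most 0.361 in any mesenchyme.

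The lower genes of glia included a delayed rectifier, a T-type calcium pore and a leak channel. Kcnb2 was at 0, 3.49, 0 and 16.2 in glia against 5.45, 89.2, 106 and 165 (log2 fold change -4.25 ± 0.42, edgeR adjusted p = 4.04e-08). Cacna1g was at 0, 2.33, 4.05 and 8.10 against 27.4, 43.2, 61.1 and 63.1 (-4.17 ± 0.37). Kcnk2 was at 2.07, 2.33, 4.05 and 0 against 19.2, 36.4, 51.3 and 39.5 (-3.82 ± 0.40). Cacna1g and Kcnk2 did not overlap between the gates.

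Further lower genes were Kcnd2, the pore of the transient A-type current (-3.55 ± 0.54), Kcnh7 (-3.77 ± 0.85, 1 UMI in all WT glia), Scn3a (-4.43 ± 0.90, 1 UMI), Cacna1c (-2.77 ± 0.32), and the auxiliary genes Kcnab1 (-1.77 ± 0.51), Kcnip3 (-1.90 ± 0.57) and Kcnip4 (-1.62 ± 0.42). The Kcnip3 call was lost without replicate 1, 4 or 5, and that of Kcnh7 with both Prokr2Cre libraries added (edgeR adjusted p = 0.0584). Kcnj8, the pore of the ATP-sensitive channel of vessels, had no UMI in glia of WT replicates 1, 2, 4 and 5 and was at least 4.24-fold lower than in mesenchyme, counted over the group with a floor of 3 UMIs. Its call (edgeR adjusted p = 0.0124) was lost with DESeq2 (0.0955), without replicate 1 (0.12) and without the capture block (0.0624). With replicate 3 in place of 4, the log2 fold change of Kcnj8 was -0.85 (edgeR adjusted p = 0.592). Of the 18 partner genes tested, 3 were higher in glia, among them the sodium leak pore Nalcn (log2 fold change 3.02) and Unc79 (1.92), and 10 were lower, where 24.7% of all genes were called.

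Within Prokr2Cre replicate 2, 6 of 48 channel genes were at least 2-fold higher in glia than in mesenchyme and 33 lower (30.5% of all such genes passed, 8.18% higher and 22.3% lower). In Prokr2Cre replicate 1 these were 5 and 22 of 40 (29.9%, with 8.68% higher and 21.2% lower). Kcna6, Kcna1 and Kcnk5 were higher in both libraries. Kcnk5, an alkali-sensitive leak channel, was at 27.6 against 1.33 CPM in replicate 1 and at 12.3 against 1.08 in replicate 2. Kcna1, a Shaker-type pore, was at 21.7 against 2.86 and at 10.52 against 2.41.

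**Figure D4:**
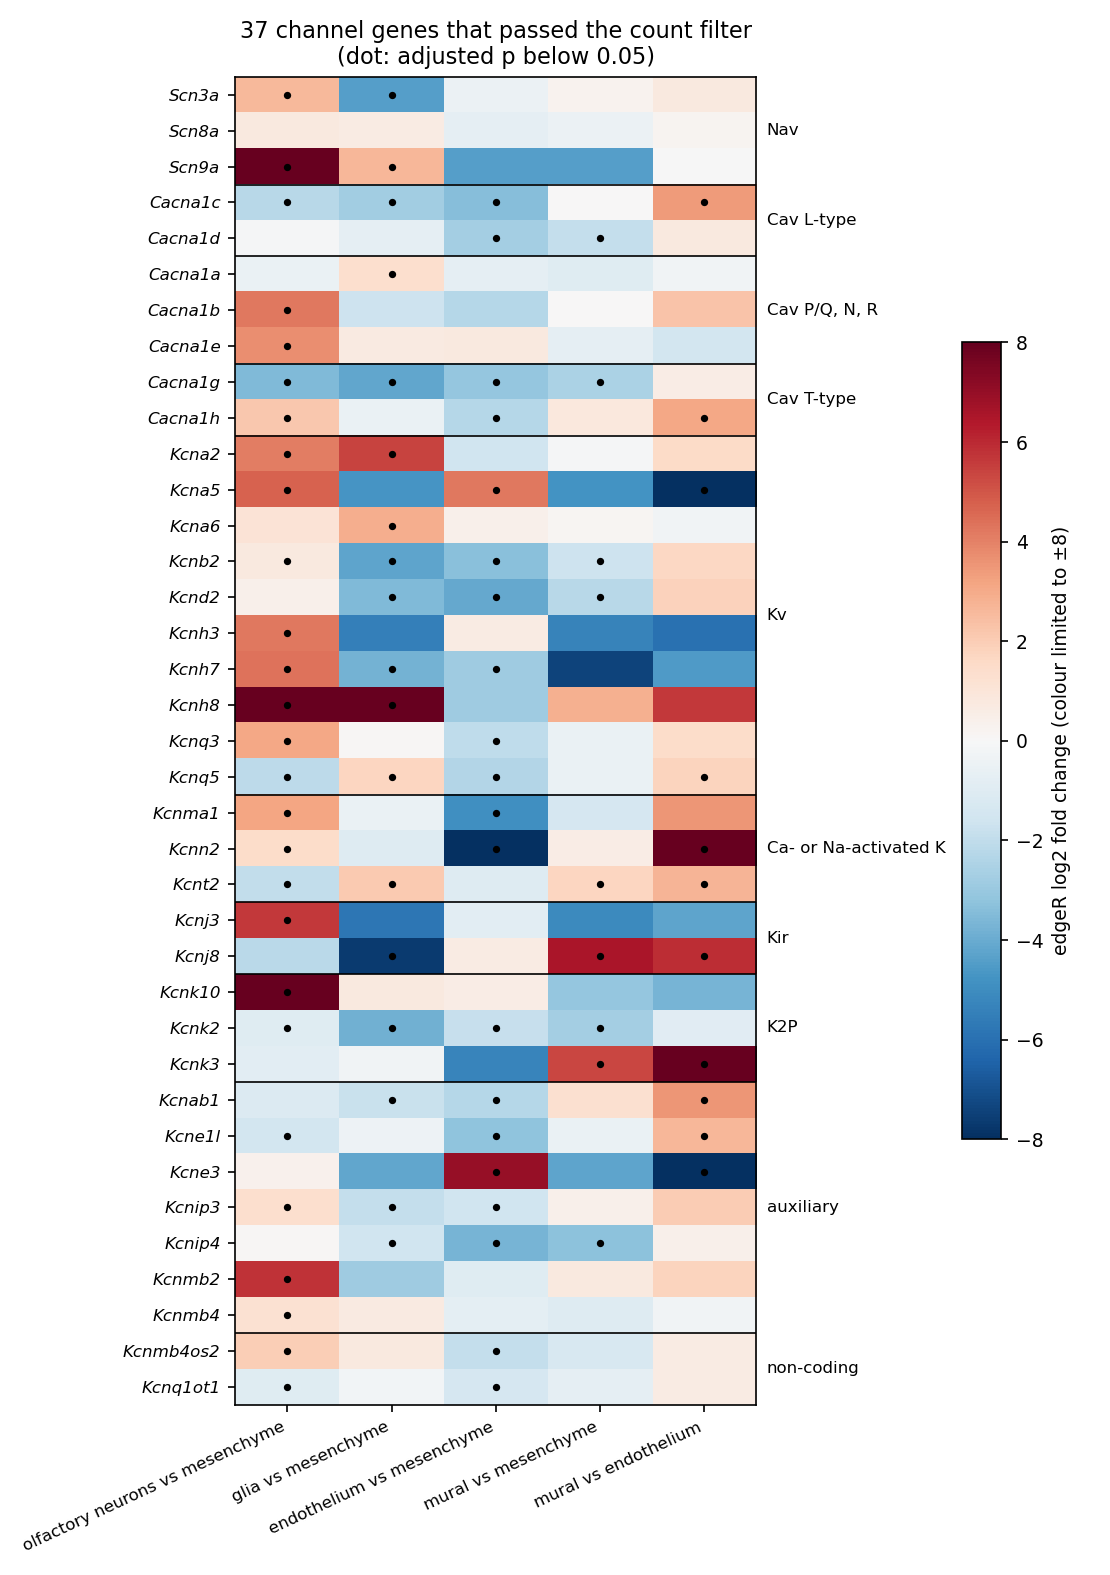
Log2 fold change (colour) of each tested channel gene (rows, grouped by family) in the contrasts of gates (columns), with calls at an edgeR adjusted p below 0.05 marked. Olfactory neurons have 20 higher and 7 lower genes, and endothelium 2 higher and 18 lower.

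In endothelium 2 channel genes were higher than in mesenchyme and 18 were lower, so 20 of 37 were called where 42.2% of all genes were (19.7% higher, 22.5% lower). The median log2 fold change was -1.92 over the channel genes and -0.07 over all genes. Neuron markers were at 59.4 to 136.5 CPM in endothelium against 183.5 to 343.1 in mesenchyme, and olfactory markers at 10.0 to 41.7 against 43.1 to 121. Macrophage markers were at 13.6, 21.7, 2.70 and 23.8 against 3.15, 3.95, 6.32 and 4.04 in WT replicates 1, 2, 4 and 5. The part of these lists was not tested. Kcne3, a single-span auxiliary subunit that holds potassium channels open in epithelia, was at 27.6, 94.1, 18.9 and 11.9 CPM in endothelium of WT replicates 1, 2, 4 and 5. In mesenchyme it was at 0.156, 0.470, 0.351 and 0.202. The log2 fold change was 6.96 ± 0.50 (SE, n = 4 captures, edgeR adjusted p = 3.49e-09), and Prokr2Cre replicate 1, with 46 cells, had 183 against 0.762.

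Kcna5, a delayed rectifier also known from vessels, was the other higher gene. It was at 4.66, 8.14, 8.10 and 11.9 in endothelium against 0.810, 0.196, 0.211 and 0.525 (log2 fold change 4.19 ± 0.58, edgeR adjusted p = 1.31e-05). Both gates were apart in each capture and over all captures. Kcna5 was thus higher than mesenchyme in endothelium and in olfactory neurons, in contrasts that share the mesenchyme sums.

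Lower genes of endothelium were mostly calcium and potassium channel pores and auxiliary subunits. The non-coding genes Kcnq1ot1 (log2 fold change -1.38) and Kcnmb4os2 (-1.92) were lower as well. Kcnn2 had no UMI in endothelium of WT replicates 1, 2, 4 and 5 and was at least 22.9-fold lower, with the floor of 3 UMIs taken over the group. Kcnma1 had 1 UMI and Kcnh7 had 2. Cacna1c was at 1.07, 14.5, 10.8 and 23.8 against 13.6, 145, 195 and 243 (log2 fold change -3.38 ± 0.34, edgeR adjusted p = 3.33e-08). The other L-type pore, Cacna1d, was at 1.79, 3.62, 13.5 and 9.93 against 10.4, 42.4, 75.0 and 62.1 (-2.71 ± 0.45).

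Kcnd2 (-4.09 ± 0.59) and its calcium-binding partner Kcnip4 (-3.69 ± 0.58) were both lower, as were Kcnb2 (-3.31 ± 0.37), Kcne1l (-3.19 ± 0.49) and Cacna1g (-3.07 ± 0.31). The Kcnh7 call (-2.87 ± 0.72) was lost with both Prokr2Cre libraries added (edgeR adjusted p = 0.21). Within Prokr2Cre replicate 1, 3 of 44 channel genes were at least 2-fold higher in endothelium, Kcne3, Kcna5 and the small-conductance pore Kcnn3 (8.73 against 0.826 CPM), and 27 lower, where 39.1% of all such genes passed (10.3% higher, 28.8% lower). Of the 18 partner genes 11 were lower and 1 was higher, Abcc9 (log2 fold change 1.84), the sulfonylurea receptor that pairs with Kcnj8, where 42.2% of all genes were called over the WT captures.

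Mural cells were compared over 3 captures, since WT replicate 5 held 9 of them. Against mesenchyme 9 channel genes were called, 3 higher and 6 lower, where 15.1% of all genes were called (8.27% higher, 6.81% lower). The median log2 fold change was -0.71 over the channel genes and -0.09 over all genes. Without the capture block 4 of 37 were called (761 of all 11037 genes), and without replicate 2, 4 of 43 (896 of all 11179). Glia markers moved with this contrast, at 137, 85.8 and 76.9 CPM in mural cells of WT replicates 1, 2 and 4 and at 10.1, 9.86 and 7.69 in mesenchyme. Of the 7 glia markers 2 or 3 had UMIs in mural cells of each capture. Macrophage markers were at 4.50, 9.90 and 38.4 against 3.15, 3.95 and 6.32, and autonomic markers at 2.25, 9.90 and 6.41 against 0.374, 0.430 and 1.26. The part of these lists was not tested.

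Kcnj8, the pore of the ATP-sensitive potassium channel of pericytes and smooth muscle, was at 335, 310 and 339 CPM in mural cells of WT replicates 1, 2 and 4. In the 9 cells of replicate 5 it was at 342, and in the 8 and 4 mural cells of Prokr2Cre replicates 1 and 2 at 242 and 408. Mesenchyme held 5.48, 3.09, 2.18 and 2.26 in the WT captures. The log2 fold change was 6.53 ± 0.35 (SE, n = 3 captures, edgeR adjusted p = 5.87e-11). The mural and mesenchyme values of Kcnj8 did not overlap in any library. Abcc9, its receptor subunit, was at 222, 284 and 461 in mural cells and 4.00 to 4.78 in WT mesenchyme (6.06, adjusted p = 2.65e-12).

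Kcnj8 and Abcc9 are neighbours on chromosome 6 (Kcnj8 at chr6:142564837-142571614 and Abcc9 at chr6:142587862-142702315 of GRCm38, both on the reverse strand). The window before the Kcnj8 start, chr6:142571615-142571864 on the reverse strand (RefSeq, GRCm38.p6), is shown since this gene differed most between mural cells and mesenchyme. The E-box in capitals begins at base -160 from the start, and such an E-box was in 14.4% of all promoter windows.
Kcnj8: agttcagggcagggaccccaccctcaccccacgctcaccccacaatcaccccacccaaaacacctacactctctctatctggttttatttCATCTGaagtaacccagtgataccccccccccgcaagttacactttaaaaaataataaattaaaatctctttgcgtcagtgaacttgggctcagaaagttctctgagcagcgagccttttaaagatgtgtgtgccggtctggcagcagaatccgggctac

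Kcnk3, an acid-sensitive two-pore leak channel, was the other gene well above mesenchyme. It was at 32.6, 16.5 and 38.4 in mural cells against 0.654, 0.509 and 0.878 (log2 fold change 5.34 ± 0.52, edgeR adjusted p = 4.15e-07). In the 8 and 4 mural cells of Prokr2Cre replicates 1 and 2 it was at 6.05 and 10.7, a single UMI in each. Kcnt2, at 3.37, 42.9 and 38.4 against 1.37, 12.1 and 13.2, passed narrowly (1.70 ± 0.57, adjusted p = 0.049) and lost its call in 10 alternatives. The lower genes were Kcnip4 (-3.30 ± 0.91, 3 UMIs in mural cells), Kcnk2 (-2.69 ± 0.51), Cacna1g (-2.51 ± 0.44), Kcnd2 (-2.24 ± 0.75), Cacna1d (-1.93 ± 0.64) and Kcnb2 (-1.65 ± 0.46). Without replicate 2 the calls of Kcnt2, Kcnip4, Kcnd2, Cacna1d and Kcnb2 were lost, and without replicate 4 those of Kcnt2, Kcnd2 and Cacna1d. The Kcnd2 call was also lost with DESeq2 (0.118) and with both Prokr2Cre libraries added (edgeR adjusted p = 0.0712).

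Among partners, the calcium channel subunits Cacnb2 (2.41) and Cacna2d1 (1.35) were higher in mural cells together with Abcc9, and 4 of 18 were lower. Over all genes 15.1% were called against mesenchyme, 8.27% higher and 6.81% lower. Cacna1c itself was at 5.62, 175 and 199 in mural cells, within the mesenchyme range of 13.6 to 243 except in replicate 1, and did not pass that test.

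Mural cells and endothelium, the 2 cell layers of a vessel, differed in 11 of 37 channel genes, 9 higher and 2 lower in mural cells (18.6% of all genes were called, 8.92% higher and 9.73% lower). The median log2 fold change was 0.78 over the channel genes and -0.03 over all genes. Without the capture block 5 of 37 were called, and 1135 of all 11037 genes. Mesenchyme markers moved with this contrast, at 323 to 516 CPM in mural cells and 35.8 to 61.5 in endothelium of the same captures. So did glia markers, at 137, 85.8 and 76.9 CPM in mural cells against 22.2, 7.24 and 2.70 in endothelium. Olfactory markers were at 39.4, 109 and 205 against 10.0, 25.3 and 27.0. The part of these lists was not tested.

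Kcnj8 was higher in mural cells by 5.88 ± 0.43 on the log2 scale (SE, n = 3 captures, edgeR adjusted p = 7.77e-09). Kcnk3 had no UMI in endothelium of the 3 captures and was at least 42.2-fold higher in mural cells, and Kcnn2 was at least 14.8-fold higher, both with a floor of 3 UMIs over the group. Cacna1c was at 5.62, 175 and 199 against 1.07, 14.5 and 10.8 in endothelium (3.41 ± 0.45, adjusted p = 5.01e-06). Cacna1h was at 12.4, 13.2 and 19.2 against 1.43, 0.905 and 2.70 (3.10 ± 0.56).

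The 2 channel genes higher in endothelium than in mesenchyme went the other way. Kcne3 had no UMI in mural cells of the 3 captures and was at least 19.8-fold lower there. Kcna5 also had none and was at least 2.63-fold lower, a call lost without replicate 2 or 4. Kcnab1 (3.52 ± 0.71), Kcnt2 (2.74 ± 0.74), Kcne1l (2.68 ± 0.71) and Kcnq5 (1.79 ± 0.40) were higher in mural cells, and the calls of Kcnab1, Kcnt2 and Kcne1l were also lost without replicate 2, that of Kcne1l without replicate 1 as well. Without the capture block the calls of all 4 were lost, at an edgeR adjusted p of 0.646 for Kcnq5, as were those of Kcna5 and of Cacna1c (0.0883).

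Other neurons, those with at most 1 olfactory marker, reached 10 cells only in WT replicate 1, with 29 cells against 122 olfactory neurons. This is 1 library, with no test, and intervals cover counting error only. Of 22 channel genes with at least 20 UMIs, 1 was at least 2-fold higher and 15 at least 2-fold lower in other neurons, where 35.8% of all such genes passed either way (7.54% higher, 28.3% lower). Other marker lists moved with this comparison, and their part was not tested. The summed level of all 4 autonomic markers was 403 CPM against 0 in olfactory neurons, that of the 4 terminal nerve markers Gal, Cntn2, Prph and Isl1 was 1896 against 672 (Gnrh1 and Prokr2 had no UMI in either gate), and that of the forebrain list was 222 against 24.1, with 3 of its 5 markers found in other neurons. Epithelium markers were at 46.5 against 988. Scn9a was at 41.3 against 257 CPM (ratio 0.161). Kcnh8 (ratio 0.174), Kcnmb2 (0.169) and Cacna1h (0.119) were lower by similar factors, and Kcnk10 had no UMI against 57, at least 3.41-fold lower. Kcnk2 was the higher gene, at 46.5 against 11.1 (ratio 4.18, exact 95% interval 1.56 to 10.8).

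The terminal nerve gate asked for neurons with at least 3 UMIs of Gnrh1 and Prokr2 together and 2 further markers. It held 0 or 1 cells in the WT captures, 1 in Prokr2Cre replicate 1 and 18 in Prokr2Cre replicate 2, so it was described in that library alone, and the part of sorting in these cell numbers was not tested. The markers go partly against the name. All 18 cells had Prokr2 UMIs (980 CPM against 78.0 in olfactory neurons), and Gal (444 against 31.6) and Cntn2 (92.1 against 12.1) were high. Gnrh1 was found in 3 of the 18 cells, Isl1 in none, and Prph was at 536 against 598. All 9 olfactory markers had UMIs, with a summed level of 2535 CPM against 3019 in olfactory neurons. Lhx2 (507 against 462) and Gng8 (1013 against 695) were higher in these cells. Lower were Ebf2 (555 against 804), Emx2 (116 against 286), Gng13 (184 against 507), Gnal (16.5 against 36.0), Stoml3 (4.72 against 26.4), Omp (70.8 against 103) and Rtp1 (68.5 against 99.7). These cells are therefore called Prokr2-positive neurons. The name stands for the whole gate rule, since 38 of the 122 olfactory neurons had Prokr2 UMIs as well (180 in all).

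In Prokr2-positive neurons the channel genes lay on both sides of their olfactory level, with a median ratio near 1. Over 47 channel genes with at least 20 UMIs in the 2 gates together the median ratio was 0.952. Of these, 5 were at least 2-fold higher and 11 at least 2-fold lower. Both are larger shares than over all such genes, of which 16.8% passed (5.23% higher, 11.6% lower). Scn9a was at 354 against 372 CPM in the 122 olfactory neurons (ratio 0.952, exact 95% interval 0.795 to 1.13). Kcnh7 was at 578 against 724. This is 1 library from 1 nose, so no test was made.

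The higher genes were an auxiliary subunit and 4 potassium channel pores. Kcnip4, which sets the kinetics of A-type channels, had 951 UMIs in 8 of the 18 cells and a ratio of 15.4. A single cell held 513 of them, and without it the ratio was 7.63. An alternative kept only the 3 cells with a Gnrh1 UMI and counted the other Prokr2-positive neurons as olfactory neurons (137 cells). The Kcnip4 ratio was then 0.405, which is not a ratio to the 122 olfactory neurons alone. With 1 more marker per gate, which gave 21 against 159 cells, it was 2.51. With each cell thinned to 2000 UMIs, the ratio of the shares of cells with a Kcnip4 UMI was 3.39. Kcnk12, a two-pore gene, had a ratio of 4.09 and Kcnk2 of 2.72. For the cells with a Gnrh1 UMI, set against those 137 cells, the ratios were 0.891 and 0.866. Kcnq3 had a ratio of 2.20, and 1.35 without the cell that held 47 of its 109 UMIs. For the cells with a Gnrh1 UMI against the 137 cells it was 0.991. Kcnq5 had a ratio of 2.42, of which 12 of 16 UMIs were in 1 cell, and 0.643 without it.

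The A-type pore Kcnd2 was lower, at 96.8 against 309 CPM (ratio 0.313, exact 95% interval 0.223 to 0.429). The other 10 lower genes had 1 to 6 UMIs each in Prokr2-positive neurons, and their exact 95% intervals are wide. Kcnj3, a pore of the G-protein-opened channel, had 6 UMIs and a ratio of 0.233 (0.0842 to 0.521), and Kcnh3 had 5 and a ratio of 0.363 (0.115 to 0.886). The A-type auxiliary subunit Kcnip1 had 4 UMIs, 3 of them in 1 cell (0.239, 0.0639 to 0.634). The small-conductance pore Kcnn3 had 2 UMIs in 1 cell (0.242, 0.0285 to 0.927) and the A-type pore Kcnc4 had 1 (0.147, 0.00363 to 0.873). For Kcnc2 (0.389, 0.102 to 1.05), Scn2a (0.380, 0.0754 to 1.19), Kcna5 and Kcnh4 (both 0.419, 0.0482 to 1.67) and Kcnj2 (0.272, 0.00657 to 1.70) the interval reached past 1. The direction turned in some alternatives. With 1 more marker per gate, where both gates held more cells (21 against 159), the ratio was 2.99 for Kcnc2 and 1.05 for Scn2a. With neurons of the epithelium gate kept it was 1.49 for Kcnc2. In the 3 cells with a Gnrh1 UMI it was 1.33 for Kcnip1, 1.35 for Kcnn3 and 1.12 for Kcna5. Those 3 ratios are against 137 cells, among which the other Prokr2-positive neurons were counted.

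Another 19 Prokr2-positive neurons also met the epithelium gate. With such neurons kept in both gates (37 against 149 cells), 12 of 53 channel genes were at least 2-fold higher and 8 lower, where 16.3% of all genes passed (6.09% higher, 10.2% lower). Kcnj6, a pore of the G-protein-opened channel, was then at 46.3 against 2.84 CPM (ratio 16.3, exact 95% interval 7.60 to 40.0), and 13.6 without the cell that held most. It had 10 and 6 UMIs in the stricter gates, fewer than the 20 required. Kcnq5 had a ratio of 10.0, and 5.42 without the cell that held 86 of its 176 UMIs. Without the cell with most UMIs of the gene, the ratio went from 5.80 to 3.45 for Scn1a, from 4.71 to 2.99 for Kcnd3 and from 7.71 to 5.09 for Kcnip4. Kcnd2 stayed low at 0.163 and Kcnc4 had 1 UMI.

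The 18 and the 19 cells differed from each other in 8 of 30 channel genes with enough UMIs, 4 higher and 4 lower, where 8.68% of all genes passed (4.08% higher, 4.6% lower). Those higher in the cells outside the epithelium gate included Kcnd2 (ratio 5.90), Cacna1a (4.96) and Kcnip4 (2.61). Kcnq5 (0.129), Kcnc2 (0.179), Kcnip1 (0.324) and Kcnj6 (0.370) were lower. Prokr2 was at 980 and 1030 CPM in these 2 sets, and Krt18 at 7.08 and 62.0.

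**Figure D5:**
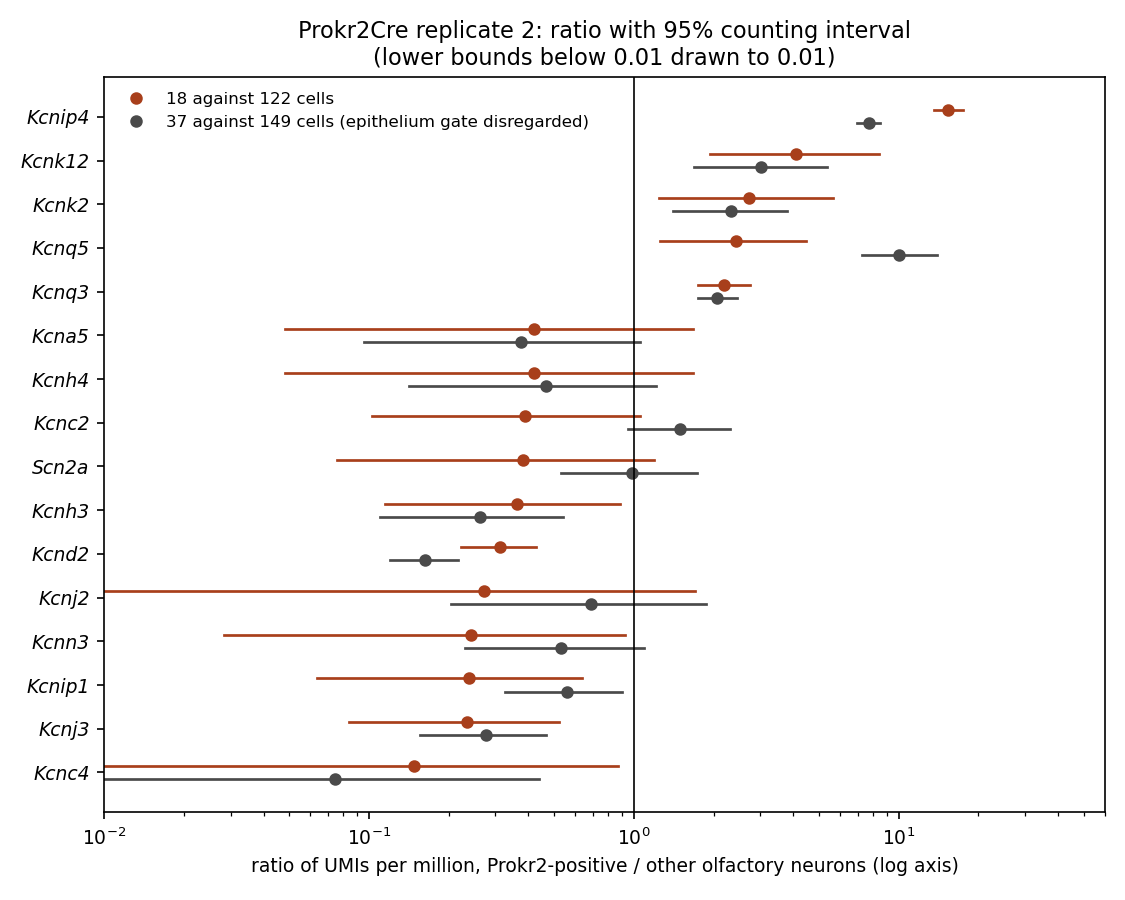
Ratio of the level in Prokr2-positive neurons to that in olfactory neurons of Prokr2Cre replicate 2 (x axis, log scale) for the channel genes that passed the 2-fold rule (rows), with exact 95% counting intervals as bars. Red points leave out neurons that meet the epithelium gate and grey points keep them: Kcnip4 lies above 1 in both (15.4 and 7.71), Kcnd2 below 1 in both (0.313 and 0.163), and Kcnc2 changes sides.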

How the data were processed

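The deposited files hold raw UMI counts per gene and cell barcode, made by the authors with Cell Ranger per the file headers (6.0.1, 6.1.2 or 7.0.0). The submitters' processing notes name Cell Ranger 4, Seurat 4.3.0 and mm10. Whether introns were counted is not given in the sources used here. Groups were taken from the labels.

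Counts of kept cells were summed per capture and marker gate with scanpy 1.11.5, and a gate entered with at least 10 cells. Cells that met 2 gates were left out. Sums were tested in R 4.3.3 with the edgeR 4.0.16 quasi-likelihood test (TMM, filterByExpr, all gates in 1 fit, capture as block, Benjamini-Hochberg over 11037 genes, threshold 0.05). The captures pair the gates, since gates of a capture come from the same suspension. DESeq2 1.42.0 was an alternative. The tests were tried on simulated counts.

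Named genes are up to 10 per direction with the largest fold change among those called with the same direction in every capture. Other called or measured genes are given by family, some chosen after their values were seen. Ratios within 1 library needed 20 UMIs and a 2-fold difference, with exact 95% intervals that cover counting error only. Floors use 3 UMIs. Positions are those of GENCODE on GRCm38, in which all 30406 identifiers were found. Doublet scores were an alternative, since the automatic threshold marked at most 0.25% of barcodes. Members, lists and gates were chosen with earlier results of these data known. Some genes are not reported here.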

Additional observations from a re-analysis of the deposited data

Results flagged for a closer look

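Among 82 groups of 4 WT captures (a named channel gene in 1 gate), 11 held a capture whose gap to the nearest of the others passed Dixon's 95% critical value for 4 samples. Chance flags about 1 in 20 such groups, and genes that are at 0 in the other captures are flagged by any UMI. In WT replicate 5, with 18 olfactory neurons, Cacna1c was at 123 CPM in olfactory neurons (7.41 to 26.7 in the other captures), Cacna1g at 13.7 (2.78 to 3.33) and Kcnt2 at 13.7 (0.926 to 1.67). These 18 cells held 145938 UMIs in all, so both values of 13.7 rest on very few UMIs, as do the other Kcnt2 values. In the same library Scn9a was at 0.566 in mesenchyme (0.235 to 0.281).

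In WT replicate 1, Kcnq5 was at 2.49 in mesenchyme (167 to 183 in the other captures) and Kcnmb2 at 61.1 in olfactory neurons (164 to 181). In that library Kcna2 was at 1.25 in mesenchyme (0.313 to 0.351) and Scn3a at 0.518 in glia (0 in the others). WT replicate 2 had the only UMIs of Kcnd2 in endothelium (6.33), of Kcnma1 in endothelium (0.905) and of Kcnh7 in glia (1.16).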

How the results depend on the processing

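Over the alternatives, the results for named genes in the WT captures kept direction and call in 884 cases, lost the call in 66 and reversed in 1. Kcnk2 in olfactory neurons changed to a log2 fold change of 1.51 when neurons that meet the epithelium gate were kept, an alternative chosen after seeing the data. Without a filter on low counts, 117 channel genes were tested in place of 37, and 49, 35 and 36 were called in olfactory neurons, glia and endothelium against mesenchyme, and 20 between mural cells and endothelium. Of all 23964 genes, 7997, 3444, 5615 and 2401 were called there. A fit of 2 gates alone called 30 of 56 channel genes in glia (3718 of all 13739) and all 5 tested between mural cells and endothelium (1754 of all 6681). Leaving out each replicate in turn gave 24 to 31 calls in olfactory neurons, 17 to 20 in glia, 17 to 21 in endothelium, 4 to 11 in mural cells against mesenchyme and 8 to 11 against endothelium. The numbers tested changed between these fits, for example to 43 channel genes of 11179 genes without replicate 2. These ranges are therefore not set against a share of all genes.

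Without the replicate block, which pairs the gates of a capture, 9 of 37 channel genes were called in glia (1283 of all 11037 genes), 4 in mural cells against mesenchyme (761) and 5 against endothelium (1135), and 25 named calls were lost. With mural cells at 2 captures the fit pools the spread over gates. No fit was run for other neurons or for the terminal nerve gate in the WT captures, which held 1 and 0 captures with enough cells.

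In Prokr2Cre replicate 2, 3 Prokr2-positive cells held a Gnrh1 UMI. With these alone in the gate, the other Prokr2-positive cells were counted as olfactory neurons, so 3 cells were set against 137. Of 47 channel genes 26 then passed the 2-fold rule, 5 higher and 21 lower. The share of all genes that passed is not given for that alternative. The ratio changed sides for Kcnip4 (0.405), Kcnk12 (0.891), Kcnk2 (0.866), Kcnq3 (0.991), Kcnip1 (1.33), Kcnn3 (1.35) and Kcna5 (1.12). With 1 more marker per gate (21 against 159 cells) the ratio was 1.05 for Scn2a and 2.99 for Kcnc2, and with neurons of the epithelium gate kept 1.49 for Kcnc2. Without the cell with most UMIs that of Kcnq5 was 0.643. Cells thinned to 2000 UMIs gave ratios of the shares of cells with a UMI of 3.39 for Kcnip4, 1.99 for Kcnq3 and 0.199 for Kcnd2, and no value for others, since the other 12 named genes had fewer than 20 UMIs left. The causes were not tested.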
